A study of Apis mellifera with 4 samples.

Results

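The royal jelly protein genes (Mrjp) and the yellow genes of the honeybee were examined in RNA-seq counts of whole larvae at 60 h. The members are all genes of the deposited table whose symbol begins with Mrjp, with yellow or with Y-, regardless of case. There were 19 such genes among 11156, namely the 9 genes Mrjp1 to Mrjp9 and the 10 yellow genes Y-b, Y-e, Y-e3, Y-f, Y-g, Y-g2, Y-h, Y-x1, Y-x2 and Y-y. The samples were 2 pools of queen larvae (Queens) and 2 pools of worker larvae (Workers), with no drug or genetic change in either caste. Queen larvae had been grafted soon after hatching into queen cells in a hive without a queen, while worker larvae stayed in their own cells in another hive with a queen. Caste, grafting and hive therefore cannot be told apart in these samples. The larvae of both castes descended from instrumentally inseminated queens of one closed breeding population. Whole larvae were used, so that fewer cells of a type and less RNA per cell cannot be told apart.

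Major royal jelly proteins are secreted by the head glands of adult nurse bees, in particular the hypopharyngeal glands, and make up most of the protein of the jelly that is fed to larvae. The genes form a row of neighbouring copies that arose by duplication from the yellow family. Mrjp1 encodes the most abundant jelly protein, whose monomer is also called royalactin, and Mrjp2 and Mrjp3 encode other abundant jelly proteins. Yellow proteins are secreted proteins of insects. In Drosophila, yellow is needed for black melanin in the cuticle, and yellow-f acts as an enzyme of the melanin pathway that converts dopachrome. Tyrosine hydroxylase, dopa decarboxylase and laccase 2 supply or oxidise the catechols from which insect cuticle is tanned.

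Exon reads numbered 5219511 and 4949093 in queens, against 5476218 and 5243286 in workers, and between 89.6% and 90.2% of them matched a single place in the genome. Levels are given as RPKM, the exon reads scaled by the authors to exon length and to library size. Castes were compared by the quasi-likelihood test of edgeR, with p-values adjusted by Benjamini-Hochberg over all 7833 genes that passed its filter on low counts, after scaling by TMM factors (1.21 and 1.20 for the queen samples, 0.828 and 0.830 for the worker samples). A gene with an adjusted p below 0.05 was called, and a positive log2 fold change is higher in queens. With library totals in place of TMM factors the median log2 fold change of all genes moved to 0.55, against 0.01, so directions below are relative to the typical gene. With library totals 3705 genes were called higher in queens and 486 higher in workers, against 495 and 942 with TMM factors. The 5 marker genes of larval fat body, Hex70a, HEX70b, Hex70c, Hex110 and Vg, were all called higher in workers (12% over all genes). They summed to 8696 and 9608 RPKM in queens, against 80305 and 72772 RPKM in workers. The paper reports that hexamerin genes themselves differ between the castes, so this sum need not follow the amount of fat body. The part of fat body in the differences below was not tested.

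Of the 19 genes, 12 passed the filter, and 2 of these were called. Y-y was higher in queens, and Y-b was higher in workers. Among all genes tested 6.32% were called higher in queens and 12% higher in workers, so that 1 called gene in each direction among 12 is a share near that background. The median log2 fold change over the 12 genes was -0.81. None of the 5 Mrjp genes tested was called by edgeR, by DESeq2 or with single-match reads, and none had an unadjusted p below 0.05 in the edgeR test of all reads.

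Single-match reads matter in a family of close copies, because a read that matches several copies cannot be placed with certainty. In Mrjp4, Y-e3, Y-f, Y-h and Y-y every exon read matched a single place. The share was also high in Mrjp6 (99.0%) and Mrjp5 (95.4%). It was 55.0% in Mrjp1, 40.0% in Mrjp2 and 12.7% in Mrjp8, so that most reads given to Mrjp8 could belong to another copy. Among the yellow genes, Y-x2 kept 13.4% of its reads, and Y-x1 kept none of 6. All 82 single-match reads of Y-x2 spanned an exon-exon junction, and none lay within an exon. Differences in Mrjp2, Mrjp8, Y-x1 and Y-x2 are thus uncertain as to the gene.

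**Figure D1:**
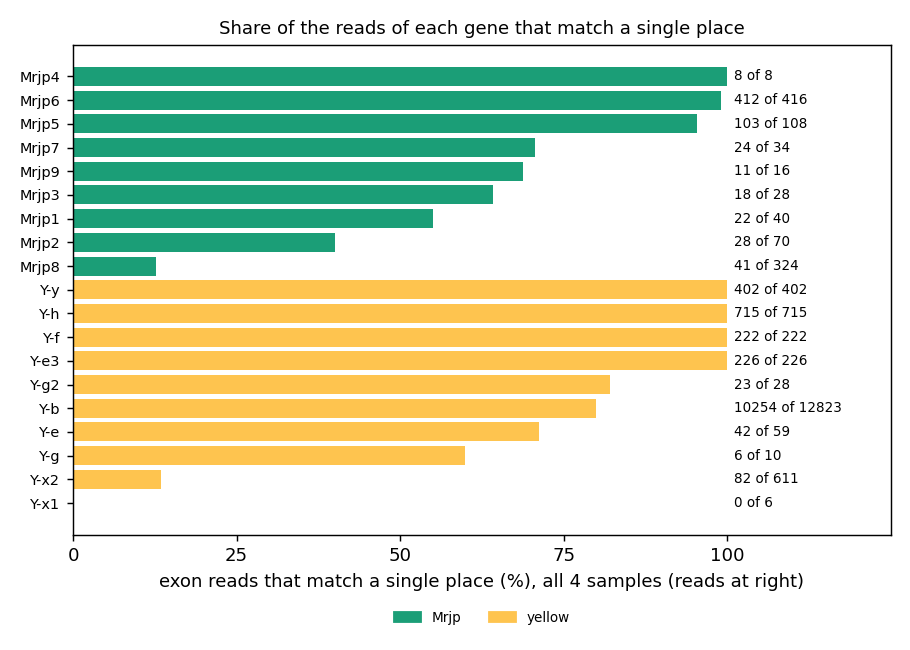
Bars give the percentage of exon reads that matched a single place, summed over the 4 samples, with the read numbers at the right and colours for the 2 families. Mrjp8, Y-x2 and Y-x1 stand at 12.7%, 13.4% and 0%, while Mrjp4, Y-e3, Y-f, Y-h and Y-y reach 100%.

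In single-match reads 8 of the 19 genes passed the filter, and the same 2 were called. Y-y had a log2 fold change of 2.48 (SE 0.28, edgeR adjusted p = 0.0057) and Y-b of -0.92 (SE 0.15, edgeR adjusted p = 0.015). In these reads 6.24% of the 7628 genes tested were called higher in queens and 11.8% higher in workers. Mrjp5 and Mrjp6 were the Mrjp genes left in this test, at -0.98 and -1.18, and neither was called.

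The 9 Mrjp genes lay side by side on scaffold NW_003377923 of the Amel_4.5 assembly, from base 818905 to base 885298, a stretch of 66.4 kb. With Y-g, Y-g2, Y-e and Y-e3 before them and Y-h after them they formed a cluster of 14 of the 19 genes over 119 kb (781758 to 900643). The order was Y-g, Y-g2, Y-e, Y-e3, Mrjp3, Mrjp1, Mrjp4, Mrjp6, Mrjp5, Mrjp2, Mrjp7, Mrjp8, Mrjp9 and Y-h. The later RefSeq annotation of Amel_HAv3.1, in which 13 of the 19 symbols were found, lists Y-e3, the 9 Mrjp genes and Y-h in this same order. The other 5 yellow genes were each on a scaffold of their own. Annotated genes overlapped several members: Y-g and Y-g2 overlapped by 1529 bases, LOC100576318 overlapped Mrjp7 by 2416 bases, and LOC100576353 overlapped Mrjp8 by 2982 bases. The counting is not stated to use strand, so reads in such overlaps cannot be assigned to a strand.

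**Figure D2:**
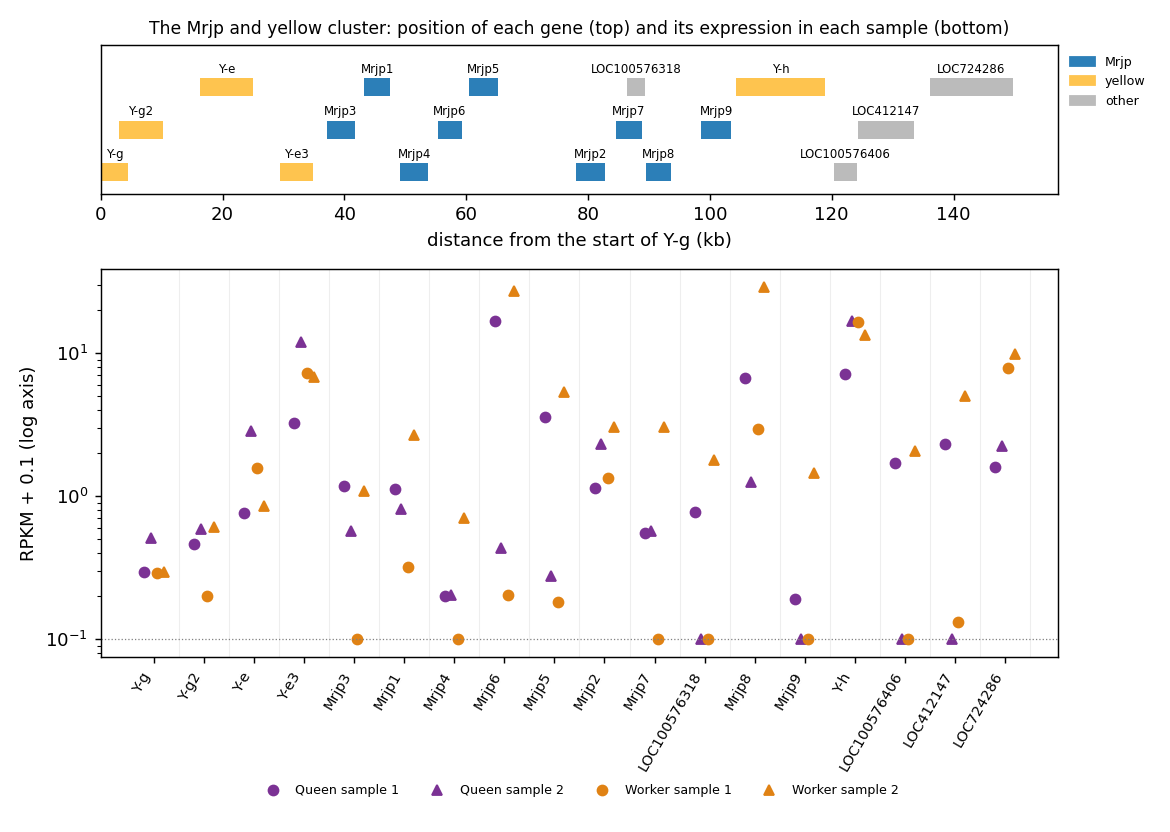
The upper panel places the genes of the cluster that had reads, and 3 genes beyond it, to scale by distance from the start of Y-g in kb. The lower panel gives RPKM + 0.1 on a log axis in each sample, with the dotted line at 0 RPKM; Mrjp5, Mrjp6 and LOC412147 have queen sample 1 and worker sample 2 far above the other samples, and Y-h does not.

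The genes of the abundant jelly proteins had few reads in the larvae. Mrjp1 had 9 and 6 reads in queens, against 2 and 23 in workers. Mrjp2, which encodes another abundant jelly protein, had 10 and 20 reads in queens and 12 and 28 in workers. Mrjp3 had 12 and 5 reads in queens, and 0 and 11 in workers, where a count of 0 allows up to 3 reads. For all 3 genes the castes overlapped. The mean RPKM of Mrjp1 exceeded that of 19.2% of the 9578 genes with any read, and that of Mrjp2 exceeded 23.1%. The log2 fold change was -0.87 for Mrjp2 (SE 0.60) and 0.15 for Mrjp3 (SE 1.17), while Mrjp1 did not pass the filter.

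Mrjp4, Mrjp7 and Mrjp9, whose protein products are minor parts of the jelly, did not pass the filter. Mrjp4 had 1 and 1 reads in queens and 0 and 6 in workers, Mrjp7 had 4 and 4 in queens and 0 and 26 in workers, and Mrjp9 had 1 and 0 in queens and 0 and 15 in workers. Worker sample 2 held the highest count of each of them, and worker sample 1 held none.

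Mrjp5, Mrjp6 and Mrjp8 together took 81.2% of the Mrjp reads of all samples, a share set by the samples with most Mrjp reads. It was 87.2% and 28.0% in queens and 65.0% and 83.6% in workers, and in queen sample 2 Mrjp2 had the most reads, 40.0% of the Mrjp total. Mrjp6 had 157 and 3 reads in queens, against 1 and 255 in workers, or 16.6 and 0.332 RPKM against 0.103 and 26.9 RPKM. Queen sample 1 and worker sample 2 were thus high, and the other 2 samples were near 0. The reads of Mrjp6 were nearly all single-match (157 and 3 in queens, 1 and 251 in workers), and those that spanned an exon-exon junction split the same way, with 32 and 0 in queens against 0 and 49 in workers. Mrjp5, the next gene in the row, had 42 and 2 reads in queens and 1 and 63 in workers, with the same samples high and low. Mrjp8, for which few reads were single-match, had 54 and 9 reads in queens and 24 and 237 in workers. Its single-match reads were 4 and 1 in queens and 1 and 35 in workers, and here worker sample 2 alone stood apart.

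In all reads, the spread between samples of one caste was beyond counting error for these genes. Per library total, Mrjp6 was 49.6 times higher in queen sample 1 than in queen sample 2 (exact 95% counting interval 16.7 to 243), and 266 times higher in worker sample 2 than in worker sample 1 (47.4 to 10560). For Mrjp5 the ratios were 19.9 (5.18 to 170) and 65.8 (11.4 to 2640), and for Mrjp8 they were 5.69 (2.79 to 13.1) and 10.3 (6.77 to 16.4). In single-match reads the queen ratio of Mrjp8 was 3.79 (0.375 to 187), an interval that includes equal levels. Its worker ratio in those reads was 36.6 (6.16 to 1488). These intervals cover counting error only. Among the 7138 genes with at least 20 reads in the higher sample of each caste, which include 10 of the 19 members, 20 genes differed 10-fold or more between the queen samples and 11 between the worker samples. Mrjp5, Mrjp6 and LOC412147 did so in both castes, each with queen sample 1 and worker sample 2 high.

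LOC412147 lies just beyond Y-h and was singled out after its values were seen. It had 68 and 0 reads in queens and 1 and 152 in workers. LOC100576406, which lies between Y-h and LOC412147, had 13 and 0 reads in queens and 0 and 16 in workers. The next gene, LOC724286, had 11 and 15 reads in queens and 58 and 72 in workers, with no such split. These 3 genes carry LOC numbers and no other name in the deposited table.

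At this spread no difference between the castes was detectable for Mrjp5, Mrjp6 and Mrjp8. The log2 fold change of Mrjp6 was -1.20 (SE 1.76, 95% interval -5.62 to 3.22), that of Mrjp5 was -1.04 (SE 1.51, -4.82 to 2.74), and that of Mrjp8 was -2.55 (SE 1.18, -5.51 to 0.41). The intervals include large differences in either direction for Mrjp5 and Mrjp6. Over the 5 Mrjp genes tested, the edgeR adjusted p lay between 0.20 and 0.95. The result depended on single samples. Without queen sample 1 the edgeR adjusted p was 0.0095 for Mrjp6 (log2 fold change -5.78), 0.036 for Mrjp5 (-4.33) and 0.0017 for Mrjp8 (-4.27), all then higher in workers. Without worker sample 2 the log2 fold change of Mrjp6 was 5.71 and that of Mrjp5 was 3.87, with neither called.

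**Figure D3:**
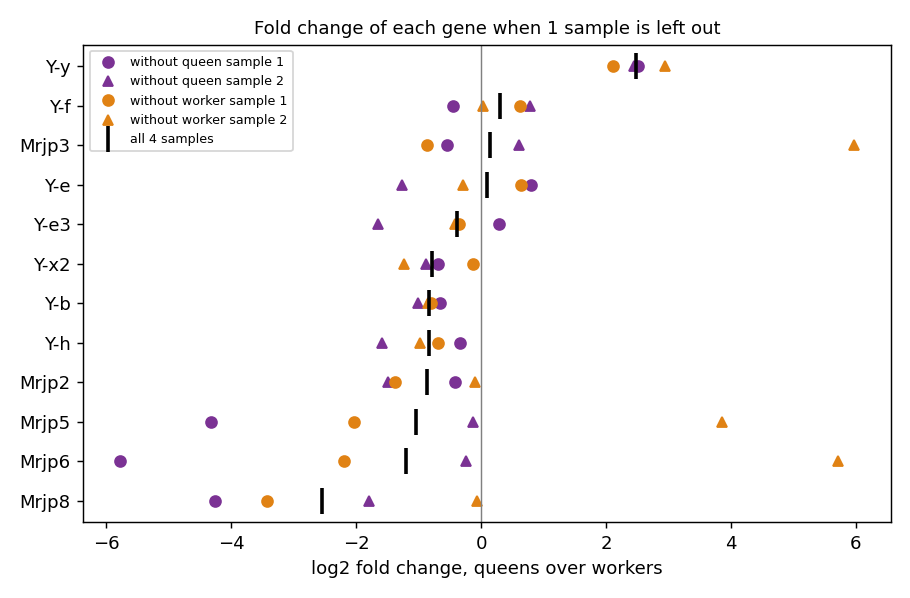
Points give the log2 fold change, queens over workers, of the 12 genes tested when 1 of the 4 samples was left out, and the vertical strokes give it with all 4 samples. Mrjp6 ranges from -5.78 without queen sample 1 to 5.71 without worker sample 2, while Y-y stays between 2.12 and 2.95.

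Summed over the 9 genes, the Mrjp reads were 290 and 50 in queens, against 40 and 664 in workers. Without Mrjp5, Mrjp6 and Mrjp8 the sums over the remaining 6 genes were 37 and 36 in queens and 14 and 109 in workers. In all reads the queen samples split in Mrjp5, Mrjp6 and Mrjp8 but not in the sum of the other genes. These 3 genes were set apart for having most reads, which came mainly from queen sample 1 and worker sample 2. The contrast with the other genes thus follows in part from that choice. In single-match reads Mrjp8 had 4 and 1 reads in queens, too few to show a split. Worker sample 2 was above worker sample 1 in both sums. The yellow genes showed no such spread as a family, with summed reads of 3087 and 3754 in queens and 4363 and 3898 in workers, most of them from Y-b.

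Genes listed for the hypopharyngeal gland and for other jelly products were also described. Of the 4 symbols listed for this gland, Hbg3 was the one found. This alpha-glucosidase, which splits sucrose and is made in the hypopharyngeal gland, had 2129 and 1427 reads in queens and 791 and 419 in workers, and was not called (log2 fold change 1.09, edgeR adjusted p = 0.070). Hbg3 was highest in queen sample 1 and lowest in worker sample 2, while Mrjp6 was high in both of those samples. Of 5 genes listed as other jelly products, Hbg3 among them, 3 were tested and 2 were called higher in workers (12% over all genes). The called genes were Hbg2, an alpha-glucosidase, and Obp13, an odorant binding protein. Hbg2 had 7131 and 7295 reads in queens and 11091 and 11755 in workers (log2 fold change -1.13, edgeR adjusted p = 0.0029). Obp13 was at -0.84 (edgeR adjusted p = 0.039). The list was set by symbol, and whether the larval product of any of these genes reaches jelly was not tested. Hbg3 was called higher in queens by DESeq2 (adjusted p = 0.0029). In edgeR it was called with library totals (adjusted p = 0.012), totals without the 10 most abundant genes (0.039), the replicate block (0.010) or junction reads (0.037). It was not called in edgeR with single-match reads (adjusted p = 0.061), DESeq2 size factors (0.070) or no filter (0.066). Its log2 fold change was 0.83 and 1.32 without queen sample 1 or 2, and 1.58 and 0.73 without worker sample 1 or 2. Obp13 was not called with library totals (edgeR adjusted p = 0.22), nor without worker sample 1 (0.14) or worker sample 2 (0.18). The gland list thus rests on 1 gene, and its part in the Mrjp counts was not tested. The reads come from whole larvae, so Hbg3 cannot show whether material from nurse glands was present.

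Y-y, the honeybee gene named after Drosophila yellow, gave the clearest difference among the 19 genes. It had 179 and 177 reads in queens, against 17 and 29 in workers, or 20.1 and 20.9 RPKM against 1.87 and 3.26 RPKM. The castes did not overlap, and the queen samples were nearly equal. The mean was 20.5 ± 0.550 RPKM in queens and 2.57 ± 0.977 RPKM in workers (SD, n = 2 each). The log2 fold change was 2.48 (SE 0.29, 95% interval 1.75 to 3.21, edgeR adjusted p = 0.0062), a 5.58-fold difference. Y-y lies on scaffold NW_003378124 at 360024 to 368006, away from the cluster, and no other annotated gene overlapped it. All of its reads were single-match, and those that spanned a junction numbered 23 and 27 in queens and 3 and 7 in workers. In a test of junction reads alone, chosen after the overlaps of other members had been seen, Y-y was called as well (log2 fold change 1.83, edgeR adjusted p = 0.043). It stayed called without any one of the 4 samples.

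Y-b was by far the most abundant of the 19 genes. Its RPKM was 131 and 165 in queens, against 190 and 179 in workers, a mean of 148 ± 24.3 in queens and 184 ± 7.51 in workers (SD, n = 2 each). This mean level exceeded that of 95.8% of genes with any read. Reads numbered 2539 and 3052 in queens and 3753 and 3479 in workers, and the castes did not overlap on either scale. After TMM scaling the levels were 401 and 515 CPM (counts scaled to a common library size) in queens and 829 and 800 CPM in workers. The log2 fold change was -0.83 (SE 0.14, 95% interval -1.18 to -0.48, edgeR adjusted p = 0.018), which is 1.78-fold higher in workers. This call was lost with library totals, at -0.29 (edgeR adjusted p = 0.12), so it rests on the scaling. It was also lost without worker sample 1 (-0.81, edgeR adjusted p = 0.10) and without worker sample 2 (-0.85, edgeR adjusted p = 0.11).

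Y-b lies on scaffold NW_003378142 at 793649 to 803577, and 1126 bases of this span overlap the gene Mhc1. Mhc1 had 1110 and 1055 reads in queens and 6763 and 6656 in workers. It was called higher in workers (log2 fold change -3.10, SE 0.09, edgeR adjusted p = 2.0e-04), and its part in the count of Y-b was not tested. Single-match reads that spanned the junctions of Y-b numbered 418 and 467 in queens and 678 and 582 in workers. The test of junction reads gave a log2 fold change of -0.97 for Y-b (SE 0.14, edgeR adjusted p = 0.0041). Where these junctions lie relative to the overlap is not known here.

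**Figure D4:**
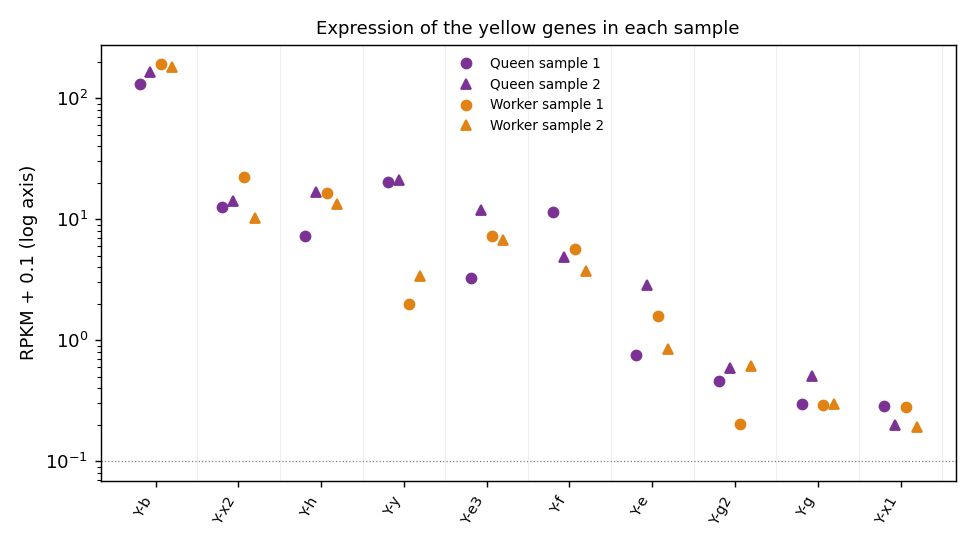
RPKM + 0.1 of the 10 yellow genes on a log axis, with 1 point per sample, ordered by mean level. Y-b lies between 131 and 190 RPKM, and Y-y shows both queen samples (20.1 and 20.9 RPKM) above both worker samples (1.87 and 3.26 RPKM).

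The other yellow genes outside the cluster were lower and were not called. Y-f, whose Drosophila relative converts dopachrome, had 100 and 40 reads in queens and 50 and 32 in workers, and the castes overlapped (log2 fold change 0.30, SE 0.46). Y-x2 had 130 and 140 reads in queens and 236 and 105 in workers (-0.79, SE 0.37, edgeR adjusted p = 0.20). In reads and RPKM the queen values of Y-x2 lay between those of the workers. After TMM scaling they lay just below both, at 20.5 and 23.6 CPM in queens and 52.1 and 24.1 CPM in workers. Y-x2 lies wholly within the span of LOC410353, which had 20 and 19 reads in queens and 20 and 34 in workers. Y-x1 had 2 and 1 reads in queens and 2 and 1 in workers, none single-match, which is too few for a comparison.

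Within the cluster, Y-h and Y-e3 were the yellow genes with the most reads. Y-h had 96 and 213 reads in queens and 227 and 179 in workers, or 7.09 and 16.5 RPKM against 16.4 and 13.2 RPKM. Although it lies between Mrjp9 and LOC412147, it was lowest in queen sample 1, where Mrjp6 and LOC412147 were high. The castes overlapped in RPKM but not after TMM scaling (15.2 and 36.0 CPM in queens, 50.1 and 41.1 CPM in workers). Its log2 fold change was -0.84 (SE 0.40, edgeR adjusted p = 0.21). Y-e3 had 25 and 90 reads in queens and 58 and 53 in workers (-0.39, SE 0.60), and it too was lowest in queen sample 1. Y-e had 7 and 28 reads in queens and 16 and 8 in workers (0.10, SE 0.76). Without queen sample 2, both Y-h (-1.58, edgeR adjusted p = 9.7e-04) and Y-e3 (-1.65, edgeR adjusted p = 0.011) were called higher in workers. Y-g had 2 and 4 reads in queens and 2 and 2 in workers, and Y-g2 had 7 and 9 in queens and 2 and 10 in workers. Neither Y-g nor Y-g2 passed the filter.

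The queen samples also stood apart in cuticle genes. The summed RPKM of 25 cuticle genes was 1196 and 5272 in queens, against 3187 and 2199 in workers, lowest in queen sample 1. In RPKM, Y-b, Y-h, Y-e3 and Y-e were also lowest there, Y-e by little (0.657, against 0.751 in worker sample 2). The other yellow genes were not. Y-f was highest in queen sample 1 (11.3 RPKM, against 4.73 in queen sample 2), and Y-y was near equal in the queens (20.1 and 20.9 RPKM). CPR2 and CPR3, cuticle proteins, gave 48.9% and 72.3% of this sum in queens and 64.2% and 50.7% in workers. Without them the sums were 611 and 1459 RPKM in queens and 1141 and 1085 RPKM in workers. Of 22 cuticle genes with reads, 18 were lower in queen sample 1 than in queen sample 2, and 13 were lowest in queen sample 1. The like shares over all genes were not computed, and several of the 22 had few reads, so these counts are description only. Of 16 cuticle genes tested with edgeR, none was called higher in queens and 5 higher in workers (6.32% and 12% over all genes), with a median log2 fold change of -0.40. At an unadjusted p below 0.05 the counts were 0 and 6, and DESeq2 called 0 and 4. With library totals CPR21 and Apd-2 stayed called higher in workers (edgeR adjusted p = 0.0053 and 0.025). The calls of CPR12 (edgeR adjusted p = 0.16), CPR14 (0.089) and CPR28 (0.73) were lost, so they rest on the scaling. Any link between the cuticle level and the yellow genes was not tested.

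**Figure D5:**
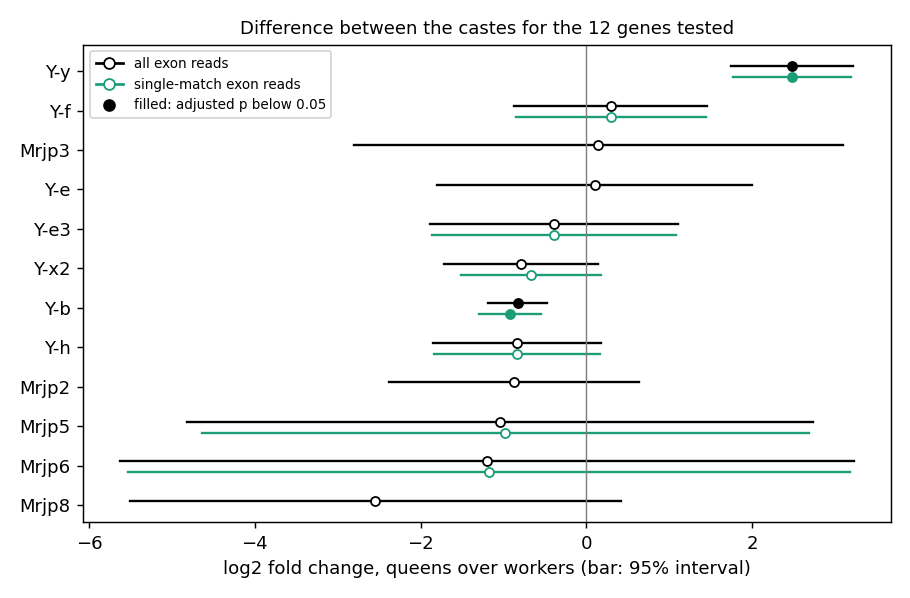
Log2 fold change, queens over workers, with 95% intervals for the 12 genes tested in all exon reads (black) and for the 8 tested in single-match reads (green), with filled points for an adjusted p below 0.05. Y-y (2.48) and Y-b (-0.83) are the filled points, and the intervals of Mrjp5, Mrjp6 and Mrjp8 span more than 5 log2 units.

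The enzymes of tanning and melanin, which act beside the yellow proteins, were described from a list of 10 genes. Of these, 7 were tested, 1 was called higher in queens and none higher in workers, against 6.32% and 12% of all genes, with a median log2 fold change of 0.03. The counts were also 1 and 0 at an unadjusted p below 0.05 and by DESeq2. The called gene was Lac2, the laccase that oxidises catechols in newly formed cuticle, with 16 and 53 reads in queens and 1 and 2 in workers (log2 fold change 3.99, SE 0.98, edgeR adjusted p = 0.047). Lac2 and Y-y were thus both higher in queens. Unlike that of Y-y, the call of Lac2 was lost without queen sample 2 (edgeR adjusted p = 0.090), worker sample 1 (0.22) or worker sample 2 (0.19). Ddc, dopa decarboxylase, had 401 and 532 reads in queens and 358 and 196 in workers and was not called (0.30). Of the listed genes of the EGF receptor pathway, to which royalactin has been linked, rl, the MAP kinase ERK, was the one matched. It was not called (-0.03). With library totals rl was called higher in queens (log2 fold change 0.51, edgeR adjusted p = 0.020), so its result rests on the scaling.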

How the data were processed

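Total RNA of whole honeybee larvae at 60 h was sequenced in 4 samples, 2 Queens and 2 Workers, described by the study as biologically independent, and samples were grouped by their labels. With CLC Genomics Workbench the authors aligned reads to the Amel_4.5 assembly, and they deposited counts per gene (total and single-match exon reads, total gene reads and single-match junction reads). The authors also deposited RPKM computed from the total exon reads and exon length, and exon lengths, exon numbers and positions. Multi-match reads are included in the total counts, so close copies can exchange reads. Columns with the authors' fold changes, p-values and scaled values were not used, and no column belonged to another series. A second deposited table lists transcripts chosen as higher in queens and was not used for tests.

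Counts were tested with edgeR 4.0.16 (R 4.3.3; TMM, filterByExpr, quasi-likelihood F-test, two-sided, caste as the sole term) over all genes, and a gene was called at a p-value below 0.05 after Benjamini-Hochberg adjustment. Standard errors came from the log2 fold change and F statistic. Alternatives were single-match reads, library totals, DESeq2 size factors, totals without the 10 most abundant genes, the Wald test of DESeq2 1.42.0, no filter, a replicate block and leaving out each sample. A test of junction reads was added after seeing the data. The test was tried on simulated data. Every member is named. Of the other lists, genes past the test or with at least 1000 reads in total could be named. PPO, TyHyd, Fibroin2, Mhc1 and the LOC genes were named beside this rule, after their values were seen. Members and lists were chosen with earlier results of these data known. Intervals of ratios between single samples cover counting error only, and those of fold changes come from edgeR. With 2 samples a caste, precision is limited by the spread between samples. Plots were drawn with matplotlib 3.10.9.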

Additional observations from a re-analysis of the deposited data

How the results depend on the processing

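Y-y was called higher in queens under every alternative run, with a log2 fold change of 2.12 to 2.95 when a sample was left out. Y-b stayed higher in workers in direction under every alternative, but its call was lost with library totals (-0.29) and without either worker sample (-0.81 and -0.85), and its range over left-out samples was -1.02 to -0.66. The number of members called higher in workers was 0 with library totals and 0 to 4 when a sample was left out, against 1 with all samples. Leaving out a sample leaves 1 sample in its caste, which is then assumed to vary like the other caste. Genes without a call changed direction in these cases: Y-e3 with library totals (0.14), Y-e with the replicate block (-0.040), and, over left-out samples, Mrjp3 (-0.87 to 5.97), Mrjp5 (-4.33 to 3.87), Mrjp6 (-5.78 to 5.71), Y-e (-1.26 to 0.81), Y-e3 (-1.65 to 0.28) and Y-f (-0.44 to 0.78). The cause was not tested. Of 133 pairs of a member and an alternative, 115 kept direction and call.

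The labels give no tie between same-numbered samples beyond the number. Their deviations correlated at -0.04 across 7833 genes, which cannot show whether they were collected together. With the replicate block Y-y was at 2.51 and Y-b at -0.84, both called, with 1223 genes called in all. Genes called in all numbered 1437, against 4191 with library totals, 687 in junction reads, 465 without worker sample 1 and 298 without worker sample 2. Without the 10 most abundant genes in the totals, 1427 genes were called higher in queens and 650 higher in workers, against 495 and 942. Members with under 10 reads in most samples were too shallow for any comparison.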

Other observations

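The Y-y transcript is listed in the deposited table of transcripts that the authors chose as higher in queens, with 191 and 191 total transcript reads in queens and 18 and 32 in workers, so this listing is no separate support for the gene's difference.

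Among markers of the larval silk gland, Fibroin3, a silk protein, had 69 and 41 reads in queens and 11 and 5 in workers and was called higher in queens (log2 fold change 2.30, edgeR adjusted p = 0.030). This call was lost without worker sample 1 (edgeR adjusted p = 0.087) and without worker sample 2 (0.14). Of 4 silk gland genes in the table, 2 were tested and 1 was called higher in queens (6.32% over all genes). The other gene tested, Fibroin2, went the other way and was not called (log2 fold change -0.86, edgeR adjusted p = 0.26). It had 12 and 7 reads in queens and 11 and 14 in workers. PPO, prophenoloxidase, a melanin enzyme of the immune response, had 140 and 109 reads in queens and 329 and 100 in workers and was not called (log2 fold change -1.24, edgeR adjusted p = 0.16). Its highest count was in worker sample 1, where Mrjp5 and Mrjp6 had 1 read each, and any link between PPO and the Mrjp genes was not tested. Tyrosine hydroxylase (TyHyd), which makes dopa from tyrosine, had 29 and 20 reads in queens and 16 and 3 in workers (log2 fold change 0.90, edgeR adjusted p = 0.40).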
